A study of Homo sapiens with 14 samples.

Results

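The cells described here are the early SW620 cells with the highest summed level of 6 hypoxia genes. For each cell, the unique molecular identifiers (UMIs, each standing for 1 captured RNA molecule) of NDRG1, DDIT4, NDUFA4L2, VEGFA, CA9 and BNIP3 were summed and divided by all UMIs of that cell. The 2% of cells with the highest share in each library of days 6 and 9 are called high-score cells, and all other kept cells of the same library are called other cells. There were 553 high-score cells among 27657 kept cells of the 4 libraries, out of 48282 kept cells in all 8 single-cell libraries. The measured levels of these 6 genes chose the cells, so their values are a description and were not tested.

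SW620 is a colorectal cancer line, and the study grew its colonies for up to 15 days with no passage, then profiled cells by droplet single-cell RNA-seq. The 4 libraries were SW620-FLAG day 6 (111 high-score cells of 5547), SW620-TET2CD day 6 (163 of 8154), SW620-FLAG day 9 (150 of 7509) and SW620-TET2CD day 9 (129 of 6447). SW620-FLAG carries an empty FLAG vector and SW620-TET2CD overexpresses the catalytic domain of TET2, an enzyme that oxidizes methylated cytosine in DNA. Labels call the SW620-FLAG cells SW620. The labels name no drug or oxygen treatment for these cultures and do not separate cells inside and outside the colonies in the single-cell libraries. Each line and day had 1 library, so no p-value below measures the spread between replicate cultures. The p-values rest on the spread between the libraries of lines and days that enter each fit, those of days 12 and 15 included where named. Those of edgeR also rest on a spread shared across genes. In the model with a class effect per day that shared part outweighs the libraries (2 residual degrees of freedom against a prior of 104.9). A very small p there does not show that the libraries of a day agree for that gene.

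Low oxygen stops the prolyl hydroxylases (EGLN enzymes) that mark HIF alpha subunits for destruction, and the stabilized HIF dimer binds DNA sites with the core letters ACGTG or GCGTG. Its targets include glucose transporters, glycolytic enzymes, angiogenic factors and carbonic anhydrase 9, which balances pH at the cell surface. DDIT4, which restrains mTORC1, is a target of HIF and also of the integrated stress response, the program in which ATF4 and DDIT3 (CHOP) answer amino acid shortage, endoplasmic reticulum stress and other insults.

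Summed over high-score cells, each library gave 789778 to 1320478 UMIs, against 53625130 to 73051379 in the other cells. Over all barcodes, kept or not, the 4 libraries shared 18 to 25 per pair, and they shared no barcode among high-score cells. TET2 reached 107 and 59.5 CPM (UMIs of a gene scaled to a fixed total per library) in the kept cells of SW620-TET2CD on days 6 and 9, against 2.11 and 2.32 CPM in SW620-FLAG, in the direction of the labels. Of 18 immune, stromal and endothelial markers, 9 were at 0 UMIs in the high-score cells of every library (PTPRC, CD3E, CD3D, MS4A1, CSF1R, COL1A2, COL3A1, DCN and CDH5). Only 13368 to 14750 of 36601 genes had any UMI in a high-score sum, so 0 UMIs is common among all genes. LUM, LYZ, TAGLN and CD68 were detected. LUM was at 33.3 and 29.1 CPM on day 6 against 27.1 and 18.2 in other cells, and at 11.4 and 9.39 on day 9 against 18.6 and 15.0. The summed level of the 18 was 20.3 to 65.1 CPM in high-score cells and 33.3 to 57.2 CPM in other cells. The epithelial marker EPCAM was at 485 to 635 CPM in high-score cells and 496 to 639 CPM in other cells. KRT20, CDX1 and CEACAM6 were at 0 in the high-score cells and at no more than 0.497 CPM in other cells. KRT19 was at 1399 and 1348 CPM on day 6 against 1504 and 1314, and at 3482 and 2077 on day 9 against 1776 and 1371. KRT8 and KRT18 were also above the other cells in both day 9 libraries. Of the 8 tested genes of this epithelial list, 3 were called higher on day 9 (5.33% of all tested genes) and none on day 6.

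Promoter windows are shown for 4 genes that the results below turn on, as 250 bases before and 50 after the first start site that RefSeq lists on GRCh38.p14, in the direction of the gene. Capitals mark both HIF cores, the letters ACGTG and the letters GCGTG, on either strand. Where a palindrome holds the first core on each strand, it counts once for each strand. CA9 (window chr9:35673678-35673977, plus strand) is a score gene and held 1 ACGTG, starting 18 bases before the start site, and 0 GCGTG. PGK1 (chrX:78103998-78104297, plus strand) and LDHA (chr11:18394313-18394612, plus strand) are glycolytic enzymes whose levels in high-score cells differed between the days, and they held 3 and 5 ACGTG and 1 GCGTG each. DDIT3 (chr12:57520465-57520764, minus strand), a stress-response factor that was higher on both days, held 0 ACGTG and 1 GCGTG.
CA9: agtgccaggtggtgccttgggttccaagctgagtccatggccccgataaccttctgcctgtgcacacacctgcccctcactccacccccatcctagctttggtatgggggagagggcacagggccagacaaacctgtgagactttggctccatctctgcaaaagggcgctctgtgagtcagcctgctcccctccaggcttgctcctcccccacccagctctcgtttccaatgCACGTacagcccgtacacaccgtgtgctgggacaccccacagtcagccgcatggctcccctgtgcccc
PGK1: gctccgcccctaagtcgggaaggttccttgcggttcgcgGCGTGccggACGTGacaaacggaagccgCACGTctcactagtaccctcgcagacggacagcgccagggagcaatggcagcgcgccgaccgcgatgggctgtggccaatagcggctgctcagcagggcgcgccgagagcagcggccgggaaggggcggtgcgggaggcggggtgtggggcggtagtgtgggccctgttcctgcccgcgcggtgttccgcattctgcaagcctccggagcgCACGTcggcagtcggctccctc
LDHA: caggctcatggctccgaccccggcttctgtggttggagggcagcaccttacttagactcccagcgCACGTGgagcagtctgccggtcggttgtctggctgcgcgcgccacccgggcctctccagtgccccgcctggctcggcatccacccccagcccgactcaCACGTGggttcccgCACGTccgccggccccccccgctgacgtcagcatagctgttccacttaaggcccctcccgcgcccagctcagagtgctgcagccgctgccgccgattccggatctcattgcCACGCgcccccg
DDIT3: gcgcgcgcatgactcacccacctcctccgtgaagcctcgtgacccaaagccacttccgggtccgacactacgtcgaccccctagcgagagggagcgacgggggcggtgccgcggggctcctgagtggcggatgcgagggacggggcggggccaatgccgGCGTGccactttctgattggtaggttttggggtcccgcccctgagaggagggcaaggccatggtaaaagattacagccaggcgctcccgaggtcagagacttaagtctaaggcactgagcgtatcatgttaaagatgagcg

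Of all 27305 listed windows, 21.6% held ACGTG, and of the 10384 windows of tested genes 26.7% did. The share was 62.1% for HIF targets outside glycolysis (18 of 29 with a window), 36.0% for glycolysis genes (9 of 25) and 18.8% for integrated stress response genes (3 of 16). GCGTG had another order, in 50.9% of the windows of tested genes, 58.6% for HIF targets, 52.0% for glycolysis genes and 68.8% for stress-response genes. At least 1 of the cores was in 63.3% of windows of tested genes, 86.2% for HIF targets, 68.0% for glycolysis genes and 68.8% for stress-response genes. Genes that rose on day 9 held ACGTG in 30.3% of their windows (180 of 595) and genes that fell in 29.9% (289 of 966). In the pooled fit of all 4 libraries it was 24.4% of windows of risen genes and 33.5% of fallen ones. A match describes the letters in this window, and nothing about binding was measured.

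The limit that the score had to pass differed greatly between libraries. The lowest score among high-score cells and the highest among other cells were 0.0233% and 0.0232% of a cell's UMIs in SW620-FLAG on day 6. They were 0.0210% and 0.0209% in SW620-TET2CD on day 6, 0.0929% and 0.0927% in SW620-FLAG on day 9, and 0.0332% and 0.0331% in SW620-TET2CD on day 9. No UMI of any of the 6 genes was found in 64.2% and 82.2% of the kept cells of SW620-FLAG and SW620-TET2CD on day 6, and in 68.1% and 72.1% on day 9. A median high-score cell held 3 and 2 such UMIs on day 6, and 8 and 5 on day 9. Because the limits differ, the day and the height of the limit cannot be told apart in any comparison between the days.

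The number of score genes with a UMI in a cell was also counted, as a description with no test. Of 274 high-score cells on day 6, 9 had UMIs of 3 or more of the 6 genes, and 155 of 279 did on day 9. On day 6, 55 of 111 cells (SW620-FLAG) and 100 of 163 cells (SW620-TET2CD) had UMIs of 1 score gene, against 5 of 150 and 20 of 129 on day 9. A cell with 2 or 3 score UMIs, the medians of day 6, can hold UMIs of at most as many of these genes, so these counts depend on the score UMIs per cell and do not show how many of the genes a cell expressed. No cell had all 6.

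By pooled UMIs, CA9 gave the most to the score on day 6 and DDIT4 on day 9. Counted by cells, CA9 held the most score UMIs in 74 and 78 cells on day 6 and in 15 and 44 on day 9, and DDIT4 in 14 and 18, then 104 and 38, so in SW620-TET2CD on day 9 more cells were led by CA9. CA9 (chromosome 9, 35673928 to 35681159) gave 57.4% and 51.9% of the score's UMIs in high-score cells of SW620-FLAG and SW620-TET2CD on day 6, and 13.8% and 28.2% on day 9. DDIT4 (chromosome 10, 72273919 to 72276036) gave 23.3% and 20.2% on day 6, and 62.6% and 35.2% on day 9. NDUFA4L2, a mitochondrial protein that lowers respiration under hypoxia, gave 0.233% and 0.297% on day 6, then 11.3% and 23.0% on day 9.

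In CPM, CA9 in high-score cells was 187 and 154 on day 6 and 257 and 229 on day 9 (SW620-FLAG first in each pair), with 10.2 to 29.6 in other cells. DDIT4 was 75.7 and 59.9 on day 6 and 1166 and 286 on day 9, with 2.34 to 16.5 in other cells. VEGFA, the angiogenic growth factor, was 59.1 and 58.2 on day 6 and 152 and 81.7 on day 9. The same UMIs chose the cells. With each cell's UMIs split at random, one portion choosing the cells and the other being read, CA9 was at 47.4 and 39.7 CPM in the chosen cells on day 6 (26.1 and 12.2 in the rest) and at 171 and 150 on day 9 (30.6 and 15.9 in the rest). CA9, DDIT4 and VEGFA were above the other cells in every library, as the rule requires of the sum, and DDIT4 had the widest spread between libraries. NDUFA4L2 was 0.757 and 0.882 CPM on day 6 and 211 and 187 on day 9. NDRG1, a stress-responsive gene widely used as a hypoxia marker, was 2.27 and 12.3 on day 6 and 77.2 and 27.2 on day 9. BNIP3, a mitophagy receptor, was 0.757 and 11.5 on day 6 and 0 and 1.88 on day 9, and its level in other cells was 0.373 to 0.890. BNIP3 gave 0.233% and 3.86% of the score's UMIs on day 6 and 0 and 0.231% on day 9. Bulk RNA-seq of the series listed it at 1.02 TPM (a level scaled by transcript length) in SW620 on day 6. In the day 15 fractions inside and outside colonies of SW620 and SW620-TET2CD it was at 0.82 to 2.05 TPM. The remaining bulk library, of another line (SW480) on day 6, had 0.75 TPM.

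**Figure D1:**
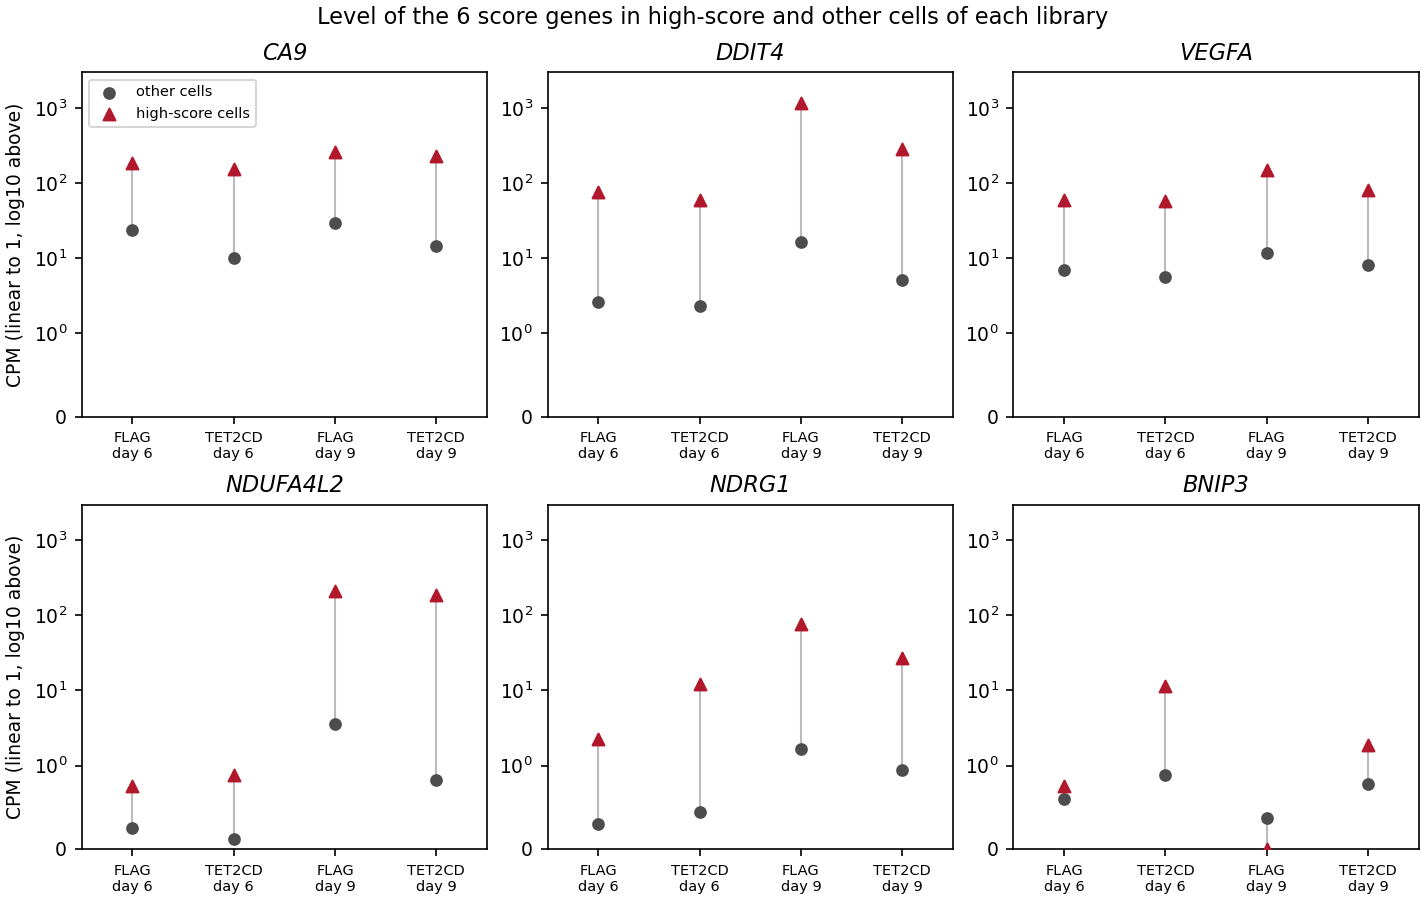
Level of the 6 score genes (CPM, linear up to 1 and log10 above) in high-score cells (red triangles) and other cells (grey circles) of each library; these levels chose the cells. NDUFA4L2 and DDIT4 stand far higher in the high-score cells of day 9 than of day 6; CA9 lies between 154 and 257 CPM, but in UMIs not used to choose the cells it was at 47.4 and 39.7 CPM on day 6 and at 171 and 150 on day 9.

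To see whether the score genes were on in the same cells, each gene was left out in turn and the 2% of cells were chosen by the other 5. The left-out gene was then read in the chosen cells as a description with no test. CA9 was at 28.2 CPM in cells so chosen against 26.6 CPM in the rest in SW620-FLAG on day 6, and at 12.3 against 12.4 in SW620-TET2CD. On day 9 it was at 192 against 30.4 CPM and at 135 against 15.9 CPM, ratios of 6.32 and 8.53. On day 6 these cells were chosen on few UMIs each and under a lower limit, so the ratios of the 2 days are given side by side and nothing is read from their difference.

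Left-out DDIT4 was 3.02 and 3.03 times the rest on day 6, and 25.1 and 30.0 times on day 9. VEGFA was at 1.80 and 1.19 times the rest on day 6 and at 11.3 and 6.33 times on day 9. NDUFA4L2 was at 0 CPM in the chosen cells of both day 6 libraries, and at 147 and 164 CPM on day 9. NDRG1 was at 4.77 and 2.93 times the rest on day 6, from 1.51 and 1.76 CPM in the chosen cells, and at 33.2 and 24.6 times on day 9. BNIP3 had another pattern, at 0 CPM in the chosen cells of SW620-FLAG on both days, and at 0.868 and 1.88 CPM in SW620-TET2CD against 1.05 and 0.783 in the rest.

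The score distributions that the rule used can also be given at a limit common to all libraries, as a description with no test. At the mean limit of the 4 libraries, 0.0426% of a cell's UMIs, 9 of 5547 cells passed in SW620-FLAG on day 6 (0.162%, 95% Clopper-Pearson interval 0.0742 to 0.308) and 11 of 8154 in SW620-TET2CD (0.135%, 0.0674 to 0.241). On day 9, 375 cells passed in SW620-FLAG (4.99%, 4.51 to 5.51) and 96 in SW620-TET2CD (1.49%, 1.21 to 1.82). On days 12 and 15 it was 43.5% to 51.1% of kept cells. The intervals cover counting error alone and compare 1 library of each line and day.

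**Figure D2:**
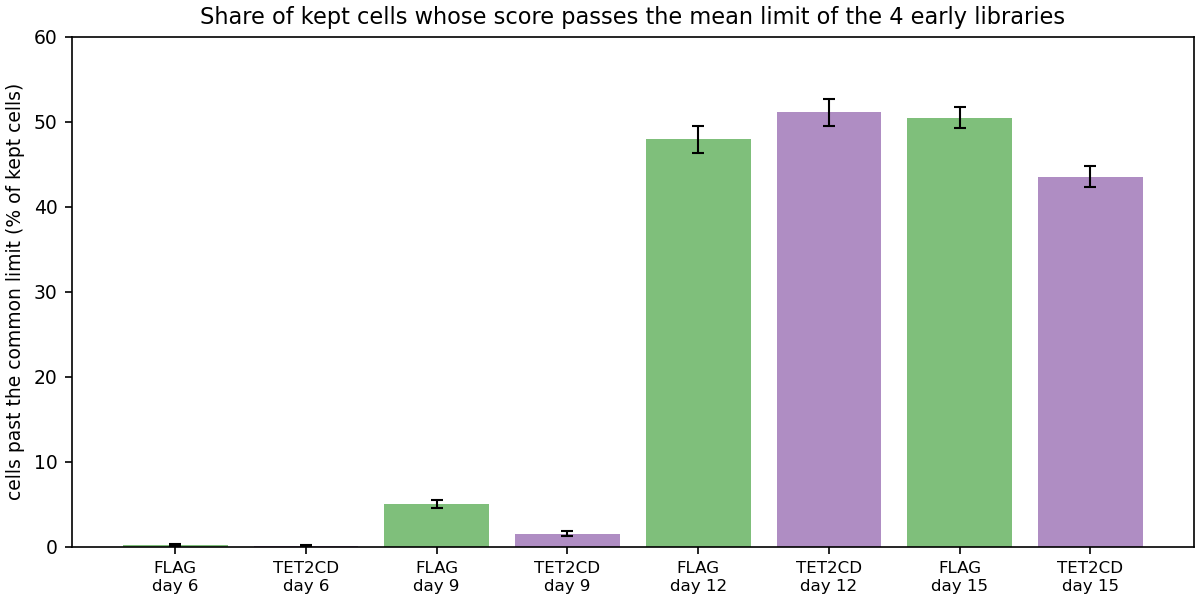
Share of kept cells (%) whose score passes 0.0426% of their UMIs, by line and day, with 95% Clopper-Pearson intervals as error bars. Both day 6 bars are below 0.2%, day 9 bars are 4.99% and 1.49%, and all 4 late bars are between 43.5% and 51.1%.

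Gene by gene, more genes separated high-score from other cells on day 9 than on day 6, by a margin that depends on the fit. UMIs were summed over the cells of each class in each library, giving 8 sums, and fitted with the library as a block and a class effect per day. This per-day model was chosen after the data had been seen. At an adjusted p of 0.05 (edgeR's quasi-likelihood test, Benjamini-Hochberg over 14575 genes, the 6 score genes left out), 80 genes passed on day 6 (0.549% of those tested), 49 of them higher (0.336%) and 31 lower (0.213%). On day 9, 1946 passed (13.4%), 777 higher (5.33%) and 1169 lower (8.02%). Fitted alone, with 1 residual degree of freedom each, the day 6 libraries gave 465 genes of 15265 (3.05%), 115 higher (0.753%) and 350 lower (2.29%), and the day 9 libraries 1368 of 14790 (9.25%), 619 higher (4.19%) and 749 lower (5.06%). These fits of single days were also added after the data had been seen. The difference between the days itself passed in 482 genes (3.31%), with 248 more positive on day 9 (1.70%) and 234 more negative (1.61%). There were 28 genes higher on both days, 23 lower on both and 3 called in opposite directions. Median log2 fold changes over all tested genes were -0.02 on day 6 and -0.05 on day 9.

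HIF targets outside glycolysis were called higher on day 9, and none was called higher on day 6. Of 38 listed genes, 33 were tested, and 24 rose on day 9 (median log2 fold change 1.56, none fell), against 0 in either direction on day 6 (median 0.22). The fit of the day 6 libraries alone called 1 of the 33, PLIN2, as lower. For 15 of the 33 the difference between the days passed the test, all more positive on day 9. Leaving out 1 library at a time left 9 (without SW620-FLAG on day 6) to 16 HIF targets past the test of the day difference. The label of hypoxia genes being on is thus borne out by genes outside the score on day 9, where 5.33% of all tested genes were higher. It is not borne out on day 6, but that day's count decides little. Only 0.549% of all tested genes passed on day 6, so 0 of 33 lies near that share. The cells of day 6 were chosen on a median of 3 and 2 score UMIs.

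EGLN3 (chromosome 14, 33924227 to 34462774), a HIF-induced oxygen sensor, was at 14.1 and 13.7 CPM in high-score cells of SW620-FLAG and SW620-TET2CD on day 6 and at 199 and 115 on day 9. In other cells it was at 13.3 and 9.96, then 25.6 and 10.2. The sums of the 2 classes thus lay within 4 CPM of each other in each day 6 library. On day 9 both high-score sums were above both sums of other cells. The log2 fold change was 3.22 ± 0.17 (SE) on day 9 (edgeR adjusted p = 1.27e-32) and 0.25 on day 6 (adjusted p = 0.897), and the difference was 2.96 ± 0.29 (adjusted p = 4.69e-14).

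P4HA1, which hydroxylates proline in collagen, was at 29.6 and 17.2 CPM on day 6 against 24.1 and 24.0 in other cells, with the lines on opposite sides. On day 9 it was at 210 and 99.0 CPM against 36.0 and 25.7. The difference between the days was 2.29 ± 0.26 on the log2 scale (edgeR adjusted p = 1.45e-11). BNIP3L, a mitophagy receptor related to BNIP3, was at 18.5 and 22.3 CPM on day 6 against 12.7 and 14.6, and at 188 and 140 on day 9 against 31.0 and 22.4 (day difference 2.05, edgeR adjusted p = 3.75e-09). In contrast to BNIP3, this paralog was well above the other cells in both day 9 libraries.

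PLIN2, a lipid droplet protein, was lower in high-score cells than in other cells of both day 6 libraries (164 and 225 CPM against 216 and 271), which did not pass in the per-day model, and rose on day 9 (718 and 392 against 263 and 213). ANKRD37, a nuclear ankyrin-repeat protein, was at 10.4 and 9.44 CPM on day 6 against 10.6 and 9.37, and at 63.6 and 46.3 on day 9 against 18.0 and 13.7. Among 10 tested HIF subunits and oxygen sensors, only EGLN3 and EGLN1 rose on day 9. HIF1A itself was at 31.1 to 59.97 CPM in high-score cells and 44.5 to 49.8 in other cells, and passed on neither day, while the fit of day 6 alone called it lower (log2 -0.55, edgeR adjusted p = 0.0264).

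Glycolysis genes followed the same pattern. Of 27 tested, 21 rose and 2 fell on day 9 (median log2 fold change 0.99), 1 rose on day 6 (median -0.09), and 19 differed between the days, all more positive on day 9. Among all tested genes 5.33% rose and 8.02% fell on day 9, 0.336% rose on day 6, and 1.70% were more positive on day 9. PGK1 (phosphoglycerate kinase, chromosome X, 77910739 to 78129295) was at 506 and 478 CPM in day 6 high-score cells, against 513 and 495 in other cells. On day 9 it was at 2026 and 1520 CPM against 527 and 425. High-score cells of day 9 thus stood far above every other value, and the day difference was 1.93 ± 0.12 on the log2 scale (edgeR adjusted p = 5.67e-25).

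LDHA, which turns pyruvate into lactate, was below the other cells in both day 6 libraries (1049 and 863 CPM against 1221 and 1097) and above them in both day 9 libraries (2402 and 2222 against 1123 and 854). The day 6 difference did not pass in the per-day model (log2 -0.28, edgeR adjusted p = 0.0956), while the day difference did (1.52 ± 0.12, adjusted p = 1.77e-20). Its partner LDHB, which favours the reverse reaction, fell on day 9, from 1047 and 1022 CPM in other cells to 681 and 800 (log2 -0.48, edgeR adjusted p = 6.02e-06). SLC2A1, the main glucose transporter, was at 178 and 152 CPM on day 6 against 172 and 149, and at 644 and 454 on day 9 against 227 and 169. SLC2A3, a high-affinity glucose transporter, was the 1 glycolysis gene to rise on day 6 (39.2 and 18.9 CPM against 16.9 and 14.1, log2 0.90, edgeR adjusted p = 0.0335), and it rose further on day 9 (179 and 42.7 against 19.9 and 8.55). PDK1, which holds pyruvate back from the mitochondrion, was at 8.88 and 4.29 CPM on day 6 against 7.37 and 5.92, and at 53.5 and 41.8 on day 9 against 11.6 and 8.23. The fit of the day 6 libraries alone called 8 glycolysis genes lower (ENO1, GAPDH, LDHA, LDHB, PFKP, PGAM1, PKM and TPI1, by 0.21 to 0.66 on the log2 scale) and SLC2A3 higher.

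Some integrated stress response genes rose on day 6 and most rose on day 9. Of 19 tested genes, 5 rose on day 6 (SESN2, DDIT3, ATF3, TRIB3 and PHGDH, median log2 fold change of the list 0.51) and 15 on day 9 (median 1.48). The fit of day 6 alone gave 9. None fell, and 9 rose more on day 9 than on day 6. The shares over all tested genes were 0.336% higher on day 6, 0.753% in the fit of day 6 alone and 5.33% on day 9, with 1.70% more positive on day 9. DDIT4, a score gene, is itself a target of this program, so the rule and the list are not independent.

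DDIT3 (chromosome 12, 57516588 to 57521737), the pro-apoptotic factor CHOP, was at 40.7 and 52.4 CPM in high-score cells on day 6 and at 274 and 69.1 on day 9. The sums of other cells lay at 15.0 to 19.1 CPM, below every high-score sum, and SW620-FLAG on day 9 was far above the rest. Each class gave 1 sum per library, so the spread between cells is not shown. Of all tested genes, 8.84% were higher in 4 of 4 libraries. The log2 fold change was 1.32 ± 0.21 on day 6 (edgeR adjusted p = 1.6e-05) and 3.17 ± 0.19 on day 9 (adjusted p = 8.85e-29), with a difference of 1.84 ± 0.26 (adjusted p = 1.45e-07).

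TRIB3, a pseudokinase induced by DDIT3 and ATF4, was at 74.8 and 49.8 CPM on day 6 against 34.5 and 29.6, and at 463 and 99.0 on day 9 against 46.9 and 29.4. ATF3, a stress-induced transcription factor, was at 31.1, 23.2, 70.0 and 29.1 CPM in the 4 libraries (SW620-FLAG and SW620-TET2CD of day 6, then of day 9) against at most 12.5 in other cells. It rose on both days, and its day difference did not pass (0.86, edgeR adjusted p = 0.156). GDF15, a secreted stress cytokine outside the list, was at 124 and 106 CPM on day 6 against 57.2 and 54.7, and at 607 and 149 on day 9 against 60.8 and 43.0.

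ATF4, the program's central factor, passed on day 9 (414 and 219 CPM against 146 and 132, log2 1.13, edgeR adjusted p = 6.96e-13) and not on day 6 (147 and 155 against 138 and 138). SLC7A11, the cystine importer, showed the same (5.92 and 5.15 CPM against 6.58 and 6.03 on day 6, 49.6 and 28.2 against 8.53 and 6.83 on day 9). In each of these genes SW620-FLAG on day 9 held the highest value. Of 14 unfolded protein response genes, 4 rose on day 9 (HERPUD1, XBP1, DNAJB9 and HSPA5) and 3 fell (CALR, CRELD2 and SDF2L1), so the list moved in both directions. HERPUD1 was also called higher in the fit of day 6 alone (log2 0.63, edgeR adjusted p = 0.000368). When DDIT4 was left out of the score, 6 stress-response genes passed in the pooled fit of all 4 libraries in place of 11, and 7 in place of 9 in the day difference. Under the same choice the calls over all genes went from 446 to 207 in the pooled fit and from 482 to 694 in the day difference. No gene of 14575 passed the test of a difference between the lines in the high-score contrast (0.00%, edgeR), where 256 had an unadjusted p under 0.05, and DESeq2 gave 0 and 89. The fit behind this test holds no class effect per day, so differences between the days enter its spread. For DDIT3 the SE was 0.56, against 0.26 in the test of the day difference. The 0 calls thus do not show that the lines were alike.

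The score gene with the most UMIs in a cell gave a further split of the high-score cells. Cells led by DDIT4 (14 and 18 on day 6, 104 and 38 on day 9) had a summed stress-response level of 2101 and 2550 CPM on day 6, and of 3541 and 1964 on day 9. Cells led by CA9 (74 and 78, then 15 and 44) had 1059 and 1018 CPM on day 6, near the 1033 and 993 of other cells, and 1680 and 884 on day 9, where other cells had 907 and 854. Summed HIF targets in CA9-led cells were 718 and 798 CPM on day 6 against 739 and 762 in other cells, and 2020 and 1434 on day 9 against 812 and 721. On day 6 the CA9-led cells lay near the other cells in both sums, and on day 9 their HIF targets were higher. HIF targets in DDIT4-led cells were at 817 and 901 CPM on day 6 and at 2701 and 1595 on day 9, above the other cells in every library. Cells led by VEGFA on day 6 (11 and 21) had 2602 and 1450 CPM of stress-response genes, also above the other cells. These are values of cells grouped by the score genes, with no test.

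**Figure D3:**
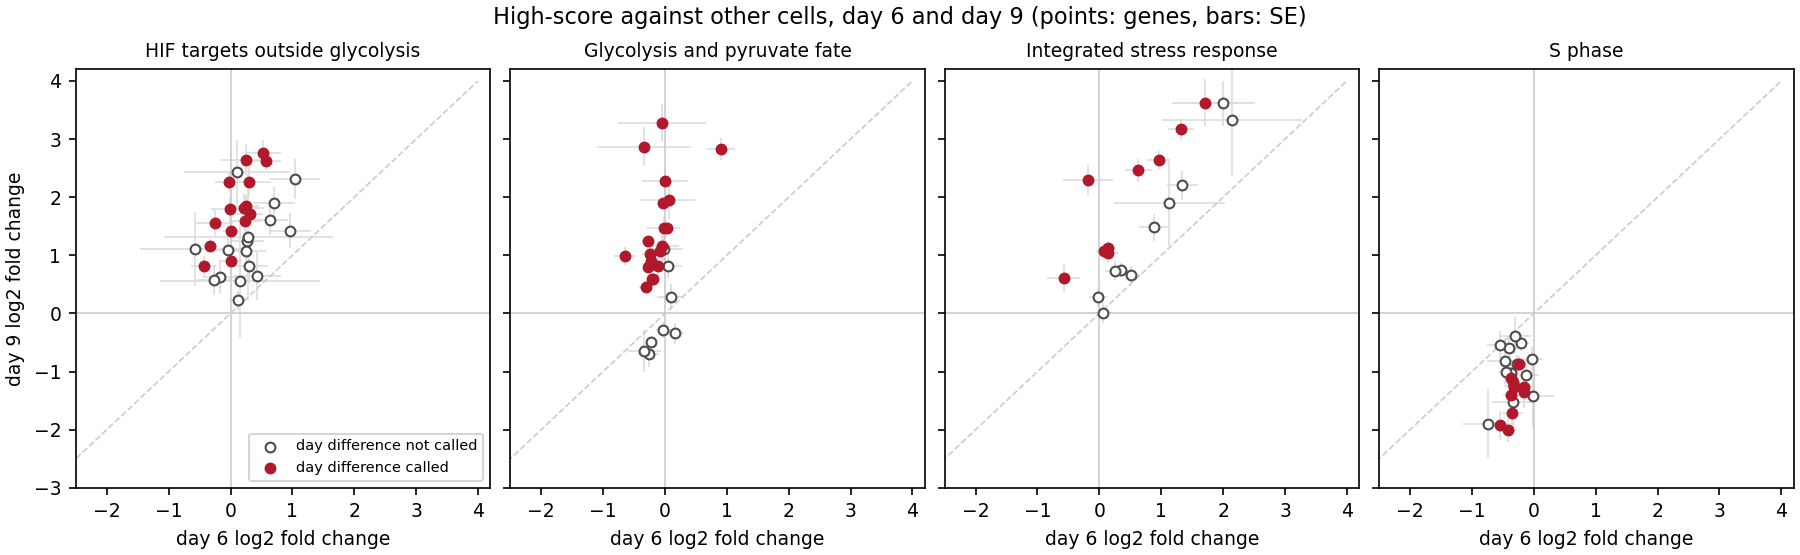
Log2 fold change of high-score against other cells on day 6 (horizontal) and day 9 (vertical) for the genes of 4 lists, each point 1 gene with SE bars, red where the day difference passed at adjusted p 0.05 and genes with an SE of 1.5 or more left out. HIF target and glycolysis genes rise above the dashed line of equal change, with medians of 1.56 and 0.99 on day 9 against 0.22 and -0.09 on day 6, while S phase genes lie below it.

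**Figure D4:**
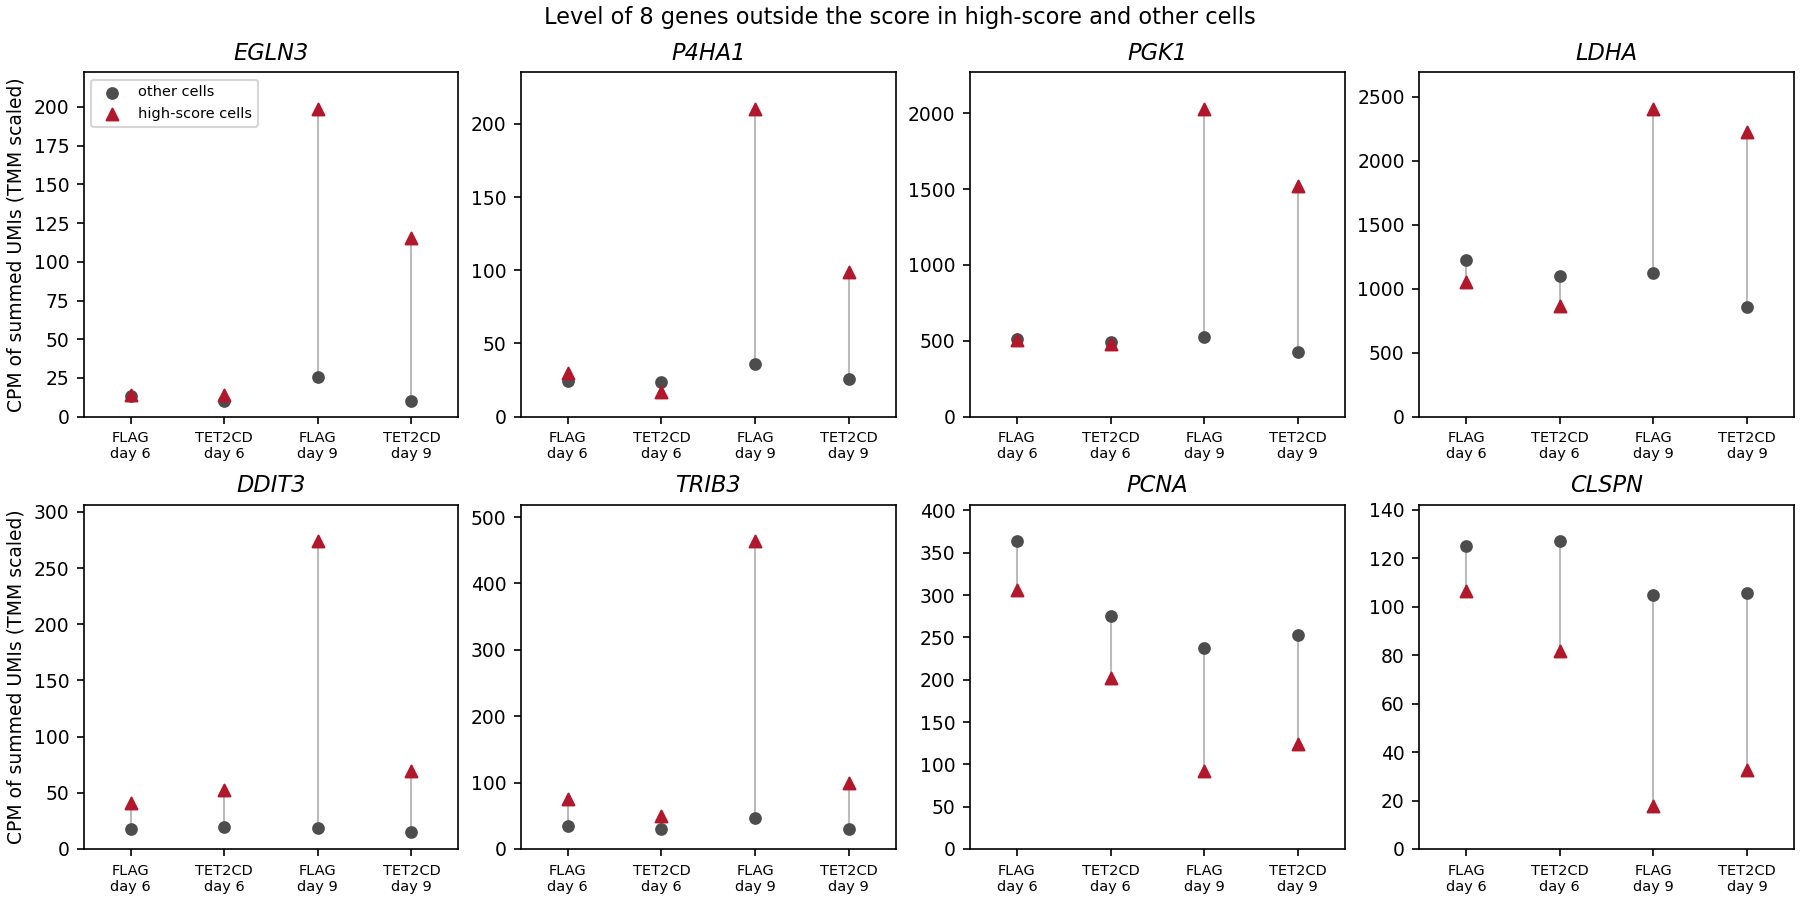
Level (CPM of summed UMIs, TMM scaled) of 8 genes outside the score in high-score cells (red triangles) and other cells (grey circles) of each library. EGLN3, P4HA1, PGK1 and LDHA are higher in both day 9 libraries, LDHA is lower in both day 6 libraries, DDIT3 and TRIB3 are higher in all 4 libraries, and PCNA and CLSPN are lower in all 4.

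DNA replication genes were lower in the high-score cells of day 9. Among all tested genes 8.02% fell on day 9 and 0.213% on day 6 in the per-day model, so a list with 0 calls on day 6 lies near that share. In the fit of day 6 alone 2.29% fell. Of 24 S phase genes, 20 fell on day 9 (median log2 fold change -1.15) and 0 on day 6 (median -0.34), where the fit of day 6 alone called 10 lower, and 11 fell further on day 9 than on day 6, a count that was 2 without SW620-FLAG on day 6 and 3 without SW620-TET2CD on day 6. PCNA, the replication clamp (chromosome 20, 5114953 to 5126626), was at 306 and 203 CPM on day 6 against 363 and 276, and at 91.7 and 124 on day 9 against 237 and 252. It was below the other cells in all 4 libraries, with a log2 fold change of -0.34 on day 6 (edgeR adjusted p = 0.187) and -1.18 on day 9 (adjusted p = 1.11e-12). CLSPN, which relays replication stress, was at 107 and 81.5 CPM on day 6 against 125 and 127, and at 17.8 and 32.7 on day 9 against 105 and 106 (day difference -1.59, edgeR adjusted p = 1.74e-06). DNMT1, the maintenance DNA methyltransferase, was at 147 and 144 CPM against 186 and 189 on day 6, and at 71.3 and 88.1 against 201 and 183 on day 9, where it fell by 1.25 on the log2 scale. The fit of day 6 alone called DNMT1 lower too (log2 -0.38, edgeR adjusted p = 0.00198).

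Of 24 G2 and M phase genes, 5 fell on day 6 (MKI67, CENPF, UBE2C, TOP2A and CDC20, median of the list -0.37), 10 in the fit of day 6 alone and 17 on day 9 (median -0.47), and 1 differed between the days. Among all tested genes 0.213% fell on day 6, 2.29% in the fit of day 6 alone and 8.02% on day 9. MKI67, the proliferation antigen, was at 135 and 148 CPM on day 6 against 186 and 227, and at 116 and 164 on day 9 against 260 and 215. As a share of all UMIs, S phase genes were lower in high-score cells of 4 of 4 libraries, at 2.15, 1.82, 0.807 and 1.14 per mille against 2.46, 2.27, 1.94 and 2.05. The mean difference was -0.699 ± 0.387 per mille (SD, n = 4 libraries, exact two-sided sign-flip p = 0.125, the smallest that 4 libraries allow). G2 and M phase genes were at 2.62, 2.63, 1.80 and 2.67 per mille against 3.03, 3.45, 3.36 and 2.95, a mean difference of -0.769 ± 0.576. With cells taken within 5 bands of UMIs, the mean difference was -0.442 for S phase genes, lower in 4 of 4 libraries, and -0.0851 for G2 and M phase genes, where SW620-TET2CD on day 9 was higher (3.55 against 2.94 per mille, exact sign-flip p = 0.75). Of the CDK inhibitor and D cyclin list, CDKN2B, BTG1, TXNIP, CDKN1C and CCNG2 rose on day 9 and CCND1 and CCND3 fell. On day 6 there were 0 calls among 11 tested, near the share of 0.549% over all tested genes. The fit of day 6 alone called 4 of the 11 higher (BTG1, CDKN1A, CDKN1C and TXNIP). BTG1, an antiproliferative gene, was at 352 and 372 CPM on day 6 against 312 and 263, and at 1264 and 778 on day 9 against 452 and 385.

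High-score cells also held fewer UMIs, which the rule favours, because all UMIs of a cell are the denominator of the score. Median UMIs per cell were 11976, 6799, 4881 and 7926 in the high-score cells against 13517.5, 8648, 6672 and 11199.5 in other cells, lower in 4 of 4 libraries (mean difference -2114 ± 785, SD). With cells taken within 5 bands of UMIs, a choice that evens out the totals, the mean difference was -174. These values are a description of the chosen cells and not a trait found apart from the rule. Among the 20% of cells with the fewest UMIs, 36 of 111, 75 of 163, 76 of 150 and 73 of 129 high-score cells were found. Their mitochondrial share was 5.97%, 4.54%, 7.28% and 7.42% against 5.27%, 3.91%, 7.78% and 7.32%, and its part in the results was not tested. Nuclear long RNAs, retained in the nucleus, moved with the class too. MALAT1, NEAT1 and KCNQ1OT1 all rose on day 9 (3 of 3, log2 0.53, 0.96 and 0.32) and none passed on day 6 in the per-day model, with summed levels 1.10, 1.28, 1.61 and 1.41 times those of other cells in the 4 libraries, and their part was not tested either. In the fit of day 6 alone MALAT1 passed as higher (log2 0.16, edgeR adjusted p = 0.045). When the 2% was taken within each of 5 bands of UMIs, 10 HIF targets, 16 glycolysis genes and 6 stress-response genes still differed between the days, all more positive on day 9, and 1 S phase gene was more negative (11 with the score taken over all cells). Under the same choice the day difference passed in 163 genes in all, against 482.

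Nuclear-encoded OXPHOS subunits were lower on day 9, with 22 of 47 tested genes fallen and none risen (median log2 fold change -0.28), where 8.02% of all tested genes fell. On day 6 the per-day model called 0 of the 47, near the 0.213% of all tested genes that fell. The fit of day 6 alone called 3 lower (ATP5MC3, NDUFS3 and SDHA). NDUFS6, a complex I subunit, was at 607 and 681 CPM on day 6 against 640 and 763, and at 334 and 387 on day 9 against 713 and 669 (log2 -0.94, edgeR adjusted p = 1.44e-13). ATP5MC1, of the ATP synthase ring, was at 82.7 and 165 CPM on day 9 against 282 and 264. Of the 13 mitochondrially encoded subunits only MT-CYB fell on day 9, by 0.20 on the log2 scale, and none on day 6.

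Cholesterol and fatty acid synthesis genes rose on day 9 in 12 of 19 cases, with FASN falling, where 5.33% of all tested genes rose. None rose on day 6, near the share of 0.336% over all tested genes, and 8 differed between the days. FASN was also the 1 gene of the list that the fit of day 6 alone called, as lower. HMGCS1, which feeds the mevalonate pathway, was at 34.8 and 39.5 CPM on day 6 against 44.7 and 43.8, and at 141 and 130 on day 9 against 60.2 and 56.5. The high-score cells thus lay below the other cells in both libraries of day 6 and above them in both of day 9. Ribosome biogenesis genes fell in 10 of 16 on day 9 with MYC rising, and NCL, the nucleolar protein nucleolin, fell on both days (1060 and 1059 CPM against 1378 and 1376 on day 6, 714 and 674 against 1452 and 1261 on day 9). The fit of day 6 alone called DKC1, NCL, NOP56 and NPM1 lower and MYC higher (log2 0.36 for MYC, edgeR adjusted p = 0.00504). MYC, the growth factor-responsive transcription factor, was at 379 and 151 CPM on day 9 against 93.2 and 104.

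Of 15 tested EMT and epithelial genes, 9 rose and 1 fell on day 9, and 1 fell on day 6. The shares over all tested genes, for this list and the next, were 5.33% higher and 8.02% lower on day 9, and 0.336% higher and 0.213% lower on day 6. VIM, the intermediate filament of mesenchymal cells, was called in opposite directions, at 424 and 413 CPM on day 6 against 569 and 556, and at 701 and 353 on day 9 against 420 and 295 (day difference 0.93 ± 0.14, edgeR adjusted p = 7.04e-07). CDH1, E-cadherin, rose on day 9 too (96.7 and 74.5 CPM against 29.2 and 38.0), so the list held risen genes of both the mesenchymal and the epithelial kind. WNT target and feedback genes had 2 risen and 3 fallen of 18 on day 9. On day 6 DKK1, a secreted WNT inhibitor, rose from 1.00 and 0.978 CPM in other cells to 8.88 and 10.3 (log2 3.26, edgeR adjusted p = 1.4e-05), and on day 9 it was at 0 and 1.82 CPM against 0.622 and 1.68. Of this list, the fit of day 6 alone called DKK1 and MYC higher and LGR5 lower (log2 -1.11 for LGR5, edgeR adjusted p = 0.0232).

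**Figure D5:**
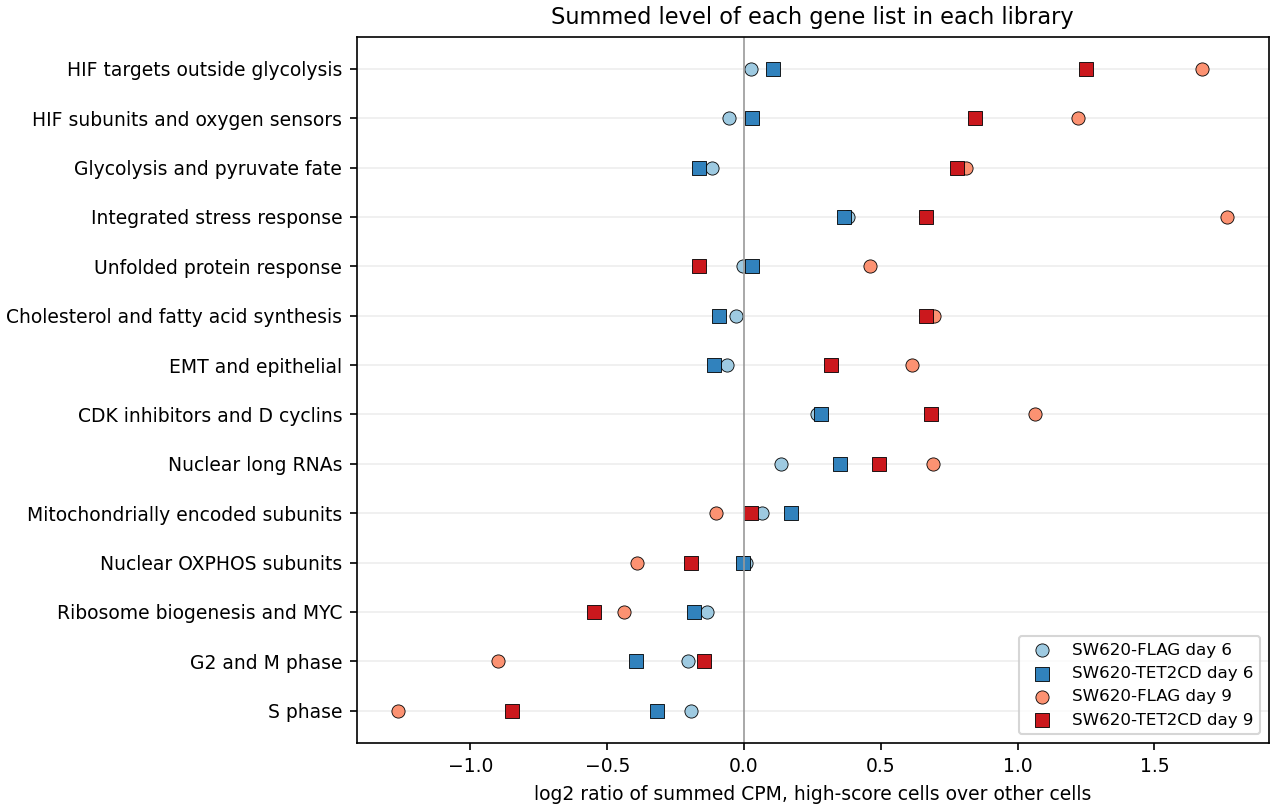
Log2 ratio of the summed CPM of each gene list, high-score over other cells, 1 point per library (circles SW620-FLAG, squares SW620-TET2CD, blue day 6, red day 9). HIF targets and glycolysis lie near 0 on day 6 and well above it on day 9, the stress response is above 0 in all 4 libraries and S phase below 0 in all 4.

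Genes called in the pooled fit of all 4 libraries were also named by a rule of size, taken from all tested genes. Many of those named are members of the preset lists, so they are no separate evidence for them. That fit called 446 of 14575 genes (3.06%; 205 higher, 1.41%, and 241 lower, 1.65%), with 1288 genes higher in 4 of 4 libraries (8.84%) and 2326 lower in 4 of 4 (16%). The count depends strongly on which libraries enter: without SW620-TET2CD on day 9 it called 16, without SW620-FLAG on day 6 it called 777, and with no library block it called 0. Without SW620-TET2CD on day 9 none of the HIF targets passed, where 15 of 33 did in the pooled fit. Of the 10 largest rises, 7 are described above (DDIT3, EGLN3, SLC2A3, BNIP3L, GDF15, TRIB3 and ATF3). ISG20, an exonuclease induced by interferon, was at 19.2, 12.9, 76.4 and 30.0 CPM (both lines of day 6, then of day 9) against 5.62 to 9.26 in other cells, above them in every library. STC2, a secreted glycoprotein induced by hypoxia and by stress, was at 11.1 and 19.7 CPM on day 6 and at 94.2 and 29.1 on day 9, against 6.83 to 10.95. AKAP12, a kinase-anchoring protein, was at 81.4 and 174 CPM on day 6 against 63.5 and 91.0, and at 905 and 447 on day 9 against 111 and 87.7.

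Of the 10 deepest falls, FAM111B, UHRF1, CLSPN, ESCO2, HELLS, FANCD2 and CDCA7 act in DNA replication, chromatin maintenance or repair. UHRF1, which brings DNMT1 to replicating DNA, was at 35.5, 46.3, 10.2 and 16.4 CPM against 46.7 to 59.9 in other cells, below them in each library. The remaining 3 were PCDH19, a cell adhesion protein, POLR3K, a subunit of RNA polymerase III, and SNRNP25, of the minor spliceosome, with log2 fold changes of -0.91, -0.90 and -0.85.

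On day 6, 3 called genes outside the lists are named here because of their values. SERPINA1, a protease inhibitor, was at 105 and 60.1 CPM against 47.8 and 21.9 (log2 1.27, edgeR adjusted p = 1.32e-08), and GADD45B, a stress-induced regulator of growth arrest, at 34.1 and 32.6 against 14.7 and 12.7. These 2 were higher in high-score cells of both lines. KRT17, a keratin, was at 75.5 CPM against 2.5 in SW620-FLAG and at 2.57 against 2.72 in SW620-TET2CD, so its call on day 6 rests on 1 library. Of 9 genes that led the late days of these cultures in an earlier look at these samples, SDCBP2, AKAP12, PLAUR and PRSS2 rose on day 6 and 6 of 9 on day 9, which is no independent evidence of their direction.

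The contrast also differed between early and late days. The 2% with the highest score on days 12 and 15 (413 cells) was compared with the other cells in the same way, and the change between the periods passed in 390 of 14438 genes (2.70%), 254 more positive late (1.76%) and 136 less (0.942%). The lowest score among late high-score cells was 0.240% to 0.359% of a cell's UMIs, against 0.0210% to 0.0929% early. At the mean early limit 43.5% to 51.1% of late kept cells passed, so many late other cells had scores that were high early. Period, limit and reference cells therefore cannot be told apart in this comparison. Late high-score cells had 25 of 33 HIF targets higher (median 1.19) in a background of 2668 of 14766 genes called (18.1%), 1169 of them higher (7.92%) and 1499 lower (10.2%). Mitochondrially encoded subunits separated the periods, with 12 of 13 lower in late high-score cells (median log2 fold change -0.66) and 8 of 13 differing between the periods. In the pooled fit of the early libraries 0 of the 13 passed. Nuclear long RNAs moved as well, with 2 of 3 higher in late high-score cells and 2 of 3 more positive late than early. Their part in the mitochondrial values was not tested.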

How the data were processed

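Single cells of SW620-FLAG and SW620-TET2CD were profiled on days 6, 9, 12 and 15, 1 library each. The deposited matrices hold the UMI count of each of 36601 genes in each barcode, and the authors' notes name Cell Ranger 4.0 and GRCh38. The bulk tables that the authors deposited give TPM, used here only as levels (6 libraries, with SW480 on day 6 among them). Their notes name Bowtie, RSEM and mm10, although the identifiers are those of human genes. Library sizes of the 4 early libraries were 71576979 to 128282918 UMIs over 37507 barcodes.

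Following the study's methods, a cell was kept if its gene count was 200 to 4500, its UMI count 1000 to 20000 and its mitochondrial share no more than 10%. Doublets were not called, and dropping the top 8% by UMIs was an alternative. The cells and the 20 gene lists were chosen with earlier results of these data known. UMIs were summed per class and library and tested with edgeR 4.0.16 (two-sided quasi-likelihood test after filterByExpr and TMM scaling, adjusted by Benjamini-Hochberg over all tested genes, threshold 0.05) in R 4.3.3, with the library as a block. The block pairs the classes of the same library, so it comes from the design. A model with a class effect per day has 8 sums, 6 coefficients and 2 residual degrees of freedom, and a prior of 104.9, so its p-values lean on a spread shared across genes. CPM values of genes outside the score that were tested are TMM scaled. Those of the score genes, of summed lists and of the cell type markers LUM, EPCAM and KRT19 are not. DESeq2 1.42.0 was an alternative.

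Named genes are the 10 largest rises and 10 deepest falls past the threshold in the 4-library fit that moved the same way in 4 of 4 libraries, with a mean of at least 20 CPM. On simulated counts the 4-library fit recovered 92% of 100 genes with a log2 fold change of 1 and 100% of 100 with 2 among 14256 genes, with 4 false calls. The day difference recovered 30% and 97% among 14286 genes, with 2 false calls. In both, the changed genes were drawn from those with a mean above 20 CPM in other cells, so recovery at lower levels was not measured. Both used the spread of the fit with no class effect per day, which real day differences enter, and equal changes in both lines. The figures for the day difference thus need not hold for the per-day model on the data. Intervals (95%, Clopper-Pearson) cover counting error only. Python 3.11.15 was used with numpy 2.4.6, pandas 2.3.3, scipy 1.17.1 and matplotlib 3.10.9. Gene positions are from the GENCODE annotation of GRCh38 and promoter windows from RefSeq. Cell types were not clustered, and the bulk counts were not used here.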

Additional observations from a re-analysis of the deposited data

Results flagged for a closer look

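The contrast of high-score against other cells differed between the days by a test of that difference (edgeR's quasi-likelihood test, adjusted p under 0.05), in 482 genes between days 9 and 6 and in 390 genes between days 12 and 15 and days 6 and 9. Of the genes named by the size of their change, 8 rises were larger on day 9 than on day 6, on the log2 scale by 1.84 for DDIT3, 2.96 for EGLN3, 1.93 for SLC2A3, 2.05 for BNIP3L, 1.59 for GDF15, 1.68 for TRIB3, 2.22 for STC2 and 2.02 for AKAP12. For 7 falls the difference was -0.96 for HELLS, -1.28 for SNRNP25, -0.78 for POLR3K, -1.42 for PCDH19, -1.59 for CLSPN, -1.38 for UHRF1 and -1.06 for FAM111B.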

How the results depend on the processing

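The pooled count of 446 genes was 1316 with no filter on low counts, 872 with the top 1% of cells, 194 with the top 5%, 123 when cells were taken within 5 bands of UMIs, 239 when the UMIs were split at random, one portion to choose the cells and the other to test, 277 in the 50% of cells with fewest cell-cycle UMIs, 1054 with a mitochondrial limit of 20%, 1014 with no upper limits and 251 without cells highest in late-day genes. With no replicate block, the pairing of classes within a library, it was 0. Among choices made after seeing the data it was 1539 with a score without CA9, 207 without DDIT4, 465 in the day 6 libraries only, 1368 in the day 9 libraries only, 80 for day 6 and 1946 for day 9 in the per-day model. Leaving out each library gave 16 to 777. The day difference of 482 genes was 162 with DESeq2, 163 within 5 bands of UMIs, 192 with split UMIs, 248 with a score without CA9, 160 in the 50% with fewest cell-cycle UMIs and 103 to 1024 with a library left out, where the lone library of a day is assumed to vary like the other. The difference between late and early days (390) was 121 to 694 with a library left out. The line difference (0) was 3 with no filter. ATF3 had a day difference of -0.0832 without SW620-FLAG on day 9 and at most 1.78 with another library left out. CA9 averaged 207 CPM in high-score cells, 92.0 when left out of the score and 102 with split UMIs. No gene named by size reversed in the pooled fit. The cause was not tested. Day 6 sums rest on 2 or 3 score UMIs per cell, which limits what that day's cells can show, and fewer cells with a program and less of it per cell cannot be told apart in the sums.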
